A study of Mus musculus with 3 samples.

Results

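The 10 genes described here, Cenpe, Cenpf, Bub1, Bub1b, Mad2l1, Cdc20, Espl1, Pttg1, Nusap1 and Kif11, encode proteins of the kinetochore, the spindle and the start of anaphase. They were chosen by symbol, with earlier results of these data known, and each of the 10 was found among the 22843 genes of the deposited data. The data came from mouse testis in which Gm4665, a long non-coding RNA gene, was knocked down with short hairpins. ICR mice were injected into the testes at postnatal day 21, one side receiving AAV9-shCtrl-RFP, a virus with a control hairpin and a red fluorescent protein, and the other side AAV9-shRNA-RFP with a hairpin against Gm4665. Somatic cells were removed, RFP+ germ cells were sorted, and 3 droplet libraries were made with the 10x Genomics 3′ chemistry. These libraries were the control hairpin (shCtrl), Gm4665 hairpin 1 (shRNA1) and Gm4665 hairpin 2 (shRNA2). All 3 libraries therefore carried the virus, the injection and the RFP sort, and no untreated testis was measured. The study took cells from 3 mice per condition, but the files do not separate the mice, so each condition was 1 library. No test between conditions was possible, no p-value is given, and every interval below covers counting error only. The time from injection to sorting was not stated in these sources.

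A kinetochore is the protein assembly that joins a chromosome's centromere to spindle microtubules. Until every kinetochore is attached, the spindle assembly checkpoint, which includes Bub1, Bub1b and Mad2l1, holds back Cdc20, the activator of the anaphase promoting complex. Once released, Cdc20 directs the destruction of securin, the product of Pttg1. Separase, the product of Espl1, is then free to cut the cohesin rings that hold chromosomes together. In the testis, spermatogonia divide by mitosis, spermatocytes pass through a long prophase (leptotene, zygotene, pachytene, diplotene) and then through a pair of meiotic divisions, and the resulting round spermatids elongate and condense without dividing again.

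In the GRCm38 (mm10) build with the GENCODE vM21 annotation, the 10 genes lie on 8 chromosomes, and only chromosome 2 holds more than 1 of them: Bub1 at chr2:127801122-127831865 on the minus strand, and Bub1b at chr2:118598211-118641591 and Nusap1 at chr2:119618298-119651244 on the plus strand. Gm4665 itself, annotated as antisense, lies at chr9:115180404-115186058 on the minus strand, inside Osbpl10 on the opposite strand with 0 exonic bases shared. Cdc20, at chr4:118432901-118437352 on the minus strand, shares 53 exonic bases with Elovl1, which runs toward it on the other strand, and Nusap1 shares 172 exonic bases with Oip5, also on the other strand. The strand setting of the authors' counting was not stated in these sources, so reads from the shared bases cannot be told apart. The last 500 bases of the Cenpf transcript (chr1:189640606-189688086, minus strand) hold a stretch that matches transcripts of 19 other genes at 95% identity or more over 122 to 194 bases, and the same search of Kif11 (chr19:37376403-37421859, plus strand) found a 120-base match to 4932416K20Rik. The Cenpf level is therefore less certain than the others.

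The promoters of 5 of the genes are printed because they show the most and the least of the short words looked for among these genes. Each runs from 250 bases before to 50 bases after the RefSeq start (GRCm38.p6). The positions are chr1:189688037-189688336 (minus strand) for Cenpf, chr4:118437294-118437593 (minus) for Cdc20, chr15:102296043-102296342 (plus) for Espl1, chr19:37376132-37376431 (plus) for Kif11 and chr6:66534971-66535270 (plus) for Mad2l1. Capitals mark the word CCAAT and the word TTTGAA, the latter a core word of the cell cycle genes homology region, or their reverse complements where a word lies on the other strand.
Cenpf: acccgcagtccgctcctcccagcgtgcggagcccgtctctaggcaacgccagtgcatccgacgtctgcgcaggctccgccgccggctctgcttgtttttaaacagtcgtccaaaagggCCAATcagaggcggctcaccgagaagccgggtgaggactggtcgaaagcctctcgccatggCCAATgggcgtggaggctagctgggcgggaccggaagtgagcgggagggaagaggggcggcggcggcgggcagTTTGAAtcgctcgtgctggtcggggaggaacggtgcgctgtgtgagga
Cdc20: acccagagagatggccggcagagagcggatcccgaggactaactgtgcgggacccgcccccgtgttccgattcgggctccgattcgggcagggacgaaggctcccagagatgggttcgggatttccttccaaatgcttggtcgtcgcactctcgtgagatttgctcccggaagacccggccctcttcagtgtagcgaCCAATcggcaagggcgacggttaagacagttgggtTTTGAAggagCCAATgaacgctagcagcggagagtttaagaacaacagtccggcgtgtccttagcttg
Espl1: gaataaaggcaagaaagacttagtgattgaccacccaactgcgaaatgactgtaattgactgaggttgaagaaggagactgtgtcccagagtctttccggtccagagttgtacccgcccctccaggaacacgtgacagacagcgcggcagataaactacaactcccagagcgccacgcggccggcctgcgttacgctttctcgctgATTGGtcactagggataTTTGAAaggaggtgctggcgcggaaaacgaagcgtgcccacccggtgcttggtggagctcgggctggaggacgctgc
Kif11: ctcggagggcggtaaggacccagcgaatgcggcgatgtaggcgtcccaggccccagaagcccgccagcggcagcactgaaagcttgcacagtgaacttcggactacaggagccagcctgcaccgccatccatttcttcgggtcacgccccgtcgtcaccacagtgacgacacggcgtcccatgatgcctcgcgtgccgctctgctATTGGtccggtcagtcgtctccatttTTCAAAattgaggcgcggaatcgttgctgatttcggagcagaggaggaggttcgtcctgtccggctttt
Mad2l1: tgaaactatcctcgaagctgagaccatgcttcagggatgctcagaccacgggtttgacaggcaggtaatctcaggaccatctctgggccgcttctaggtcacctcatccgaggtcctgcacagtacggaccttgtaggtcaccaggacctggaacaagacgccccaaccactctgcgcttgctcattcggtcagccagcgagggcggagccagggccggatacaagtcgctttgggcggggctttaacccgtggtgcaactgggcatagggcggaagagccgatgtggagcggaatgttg

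Counting both strands of the same window, TTTGAA was present in 5 of the 10 promoters and in 17.8% of 32544 RefSeq promoters. CCAAT was present in 7 of the 10 and in 37.4% of all. Both words occurred together in Cenpf, Bub1b, Cdc20, Espl1 and Kif11, that is in 5 of the 10, and in 6.9% of all promoters. In Cdc20 the TTTGAA began 18 bases before the start, with a CCAAT on either side of it, 53 and 8 bases before the start. In Espl1 and Kif11 the TTTGAA began 27 and 19 bases before the start, and the CCAAT 44 and 45 bases before it. Neither word was found in the windows of Mad2l1, Pttg1 and Nusap1, and the word TTTCCCGC or its variant TTTGGCGC, forms of the site of E2F factors, occurred in 0 of the 10 and in 1.6% of all. The RefSeq start of Mad2l1 lies upstream of the GENCODE start and that of Pttg1 inside the GENCODE gene, so their windows differ from those around the GENCODE starts. The words do not overlap each other, a match is a description of letters, and binding was not measured.

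The libraries held 1418, 1732 and 1873 cells with 40405313, 38330044 and 44640351 UMIs (unique molecular identifiers, each standing for 1 captured RNA molecule) in the order control, hairpin 1, hairpin 2, which is kept for every set of 3 values below. The median cell had 19366, 14668 and 16518 UMIs, the mean mitochondrial share was 0.662%, 1.22% and 1.43%, and pairs of libraries shared 5 to 7 cell barcodes. Levels are given as UMIs per 1000000 UMIs of the same cells and library, written CPM. Gm4665 was at 311, 52.8 and 79.1 CPM, that is at 0.170 and 0.254 of the control, and it was below the control with both hairpins in every cell class. Cells fell into 20 clusters, made without the 10 genes and without the related genes listed further on, and clusters were named from marker lists. The classes were spermatogonia (27, 107 and 130 cells), leptotene to zygotene spermatocytes (83, 68 and 214), pachytene to diplotene spermatocytes (111, 290 and 313), round spermatids (407, 427 and 405), and elongating and condensing spermatids (591, 626 and 461). A further 180, 122 and 171 cells lay in clusters with markers of more than 1 class. In spite of the germ cell sort, 19, 92 and 179 cells carried markers of antibody-lineage cells, other leukocytes or macrophages. A class was compared between libraries where each held at least 50 of its cells, which left out the spermatogonia.

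All 10 genes were lower in both spermatid classes than in the richest earlier class, in each library, but they did not share 1 profile. Summed over the 10 genes, spermatogonia of the control held 1224 CPM, leptotene to zygotene spermatocytes 729 CPM, pachytene to diplotene spermatocytes 1125 CPM, round spermatids 195 CPM and elongating and condensing spermatids 60.5 CPM. Pachytene to diplotene spermatocytes were 7.83% of the control cells and gave 49.5% of the UMIs of the 10 genes there. The corresponding shares of these UMIs were 56.8% with hairpin 1 and 44.6% with hairpin 2.

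**Figure D1:**
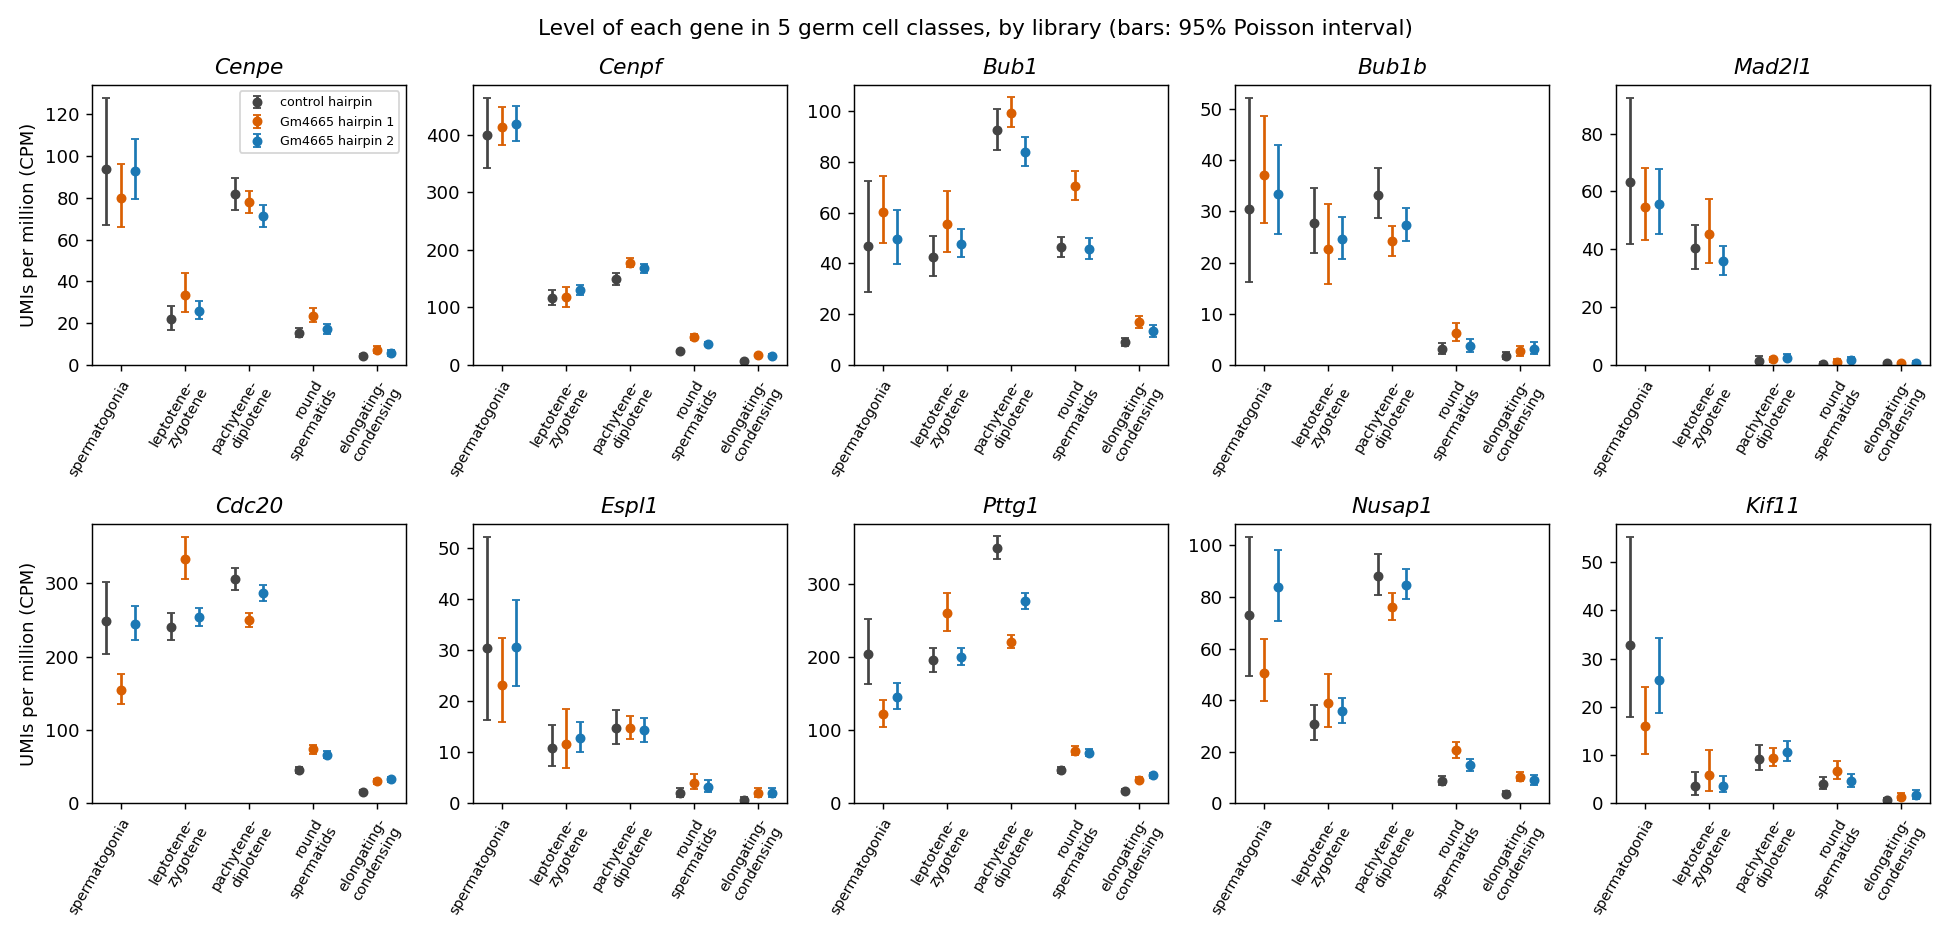
Level of each of the 10 genes (CPM, linear axis from 0) in 5 germ cell classes, with 1 point per library and bars for the exact 95% Poisson interval of the count. Pttg1, Cdc20 and Bub1b are high through the spermatocyte classes, Mad2l1 is near 0 after leptotene to zygotene, Bub1 stays high into round spermatids, and every gene is low in elongating and condensing spermatids.

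Among the kinetochore genes, Cenpe encodes a kinesin motor that carries chromosomes to the spindle equator. It was at 93.9, 79.9 and 93.1 CPM in spermatogonia, 21.9, 33.7 and 25.9 CPM in leptotene to zygotene spermatocytes and 81.7, 78.1 and 71.1 CPM in pachytene to diplotene spermatocytes. Cenpf, a large coiled-coil protein of the outer kinetochore, was highest in spermatogonia, at 399, 414 and 419 CPM. Its level was 116, 117 and 130 CPM in leptotene to zygotene and 149, 178 and 168 CPM in pachytene to diplotene spermatocytes. Within each library the spermatogonial Cenpf level was 2.69, 2.33 and 2.49 times that of pachytene to diplotene spermatocytes, with a lowest interval bound of 2.12. Cenpe thus had a high level at each end and a lower level in early meiotic prophase, in all 3 libraries. Cenpf mainly fell after spermatogonia, and its pachytene to diplotene level was only 1.28, 1.52 and 1.29 times its leptotene to zygotene level.

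Of the checkpoint genes, Mad2l1 departed most from the others. Its product binds Cdc20 and is the core of the inhibitor that the checkpoint makes. Mad2l1 was at 63.4, 54.7 and 55.8 CPM in spermatogonia and at 40.3, 45.3 and 35.8 CPM in leptotene to zygotene spermatocytes, but only at 1.46, 1.82 and 2.50 CPM in pachytene to diplotene spermatocytes, on 8, 20 and 25 UMIs. The drop from leptotene to zygotene to the next class was 27.7-fold in the control (interval 13.6 to 65.6), 24.9-fold with hairpin 1 (14.9 to 43.1) and 14.3-fold with hairpin 2 (9.45 to 22.7). In cells thinned to 10000 UMIs, 43.2%, 34.5% and 35.9% of leptotene to zygotene spermatocytes held a Mad2l1 UMI (Clopper-Pearson intervals 32.2 to 54.7, 22.5 to 48.1 and 29.2 to 43.0). In thinned pachytene to diplotene spermatocytes the share was 0.909%, 0.766% and 2.56% (0.023 to 4.96, 0.0929 to 2.74 and 1.03 to 5.19), and in elongating and condensing spermatids 0.701%, 0.429% and 0.752%. The shares in pachytene to diplotene cells of the control and hairpin 1 libraries thus lay near those in these spermatids, which no longer divide. With hairpin 2 the share was 2.56% against 0.752%. Whether these few UMIs are background was not tested. Without thinning, the shares were 80.7%, 54.4% and 60.3% in leptotene to zygotene and 5.41%, 5.17% and 7.35% in pachytene to diplotene spermatocytes.

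Bub1, a checkpoint kinase at the kinetochore, had the opposite bias. It was at 42.4, 55.7 and 47.8 CPM in leptotene to zygotene spermatocytes, 92.4, 99.4 and 83.9 CPM in pachytene to diplotene spermatocytes and 46.3, 70.6 and 45.7 CPM in round spermatids. Round spermatids gave 39.3% of the Bub1 UMIs of the control library, against 10.5% of those of Bub1b. By cluster, Bub1 was at 140 CPM in cluster 11 and 114 CPM in cluster 7, the first counted with pachytene to diplotene spermatocytes and the second with round spermatids. In cluster 14, where 5 of the 10 genes peaked, Bub1 was at 33.7 CPM. Cluster 11 was named by its mean log2 marker level over the other cells, 0.49 for the pachytene to diplotene list against 0.09 for the round spermatid list. That 0.49 was the lowest leading score of any cluster. In cluster 11, 7 of 13 pachytene to diplotene markers and 6 of 16 round spermatid markers were raised. None of either list was among its 10 leading genes, which was also true of pachytene to diplotene clusters 6, 14 and 18. The place of cluster 11 in the order of stages is therefore uncertain. Bub1b, which encodes the BubR1 subunit of the checkpoint inhibitor, was at 27.7, 22.7 and 24.6 CPM in leptotene to zygotene and at 33.3, 24.2 and 27.3 CPM in pachytene to diplotene spermatocytes, and at 3.02, 6.27 and 3.66 CPM in round spermatids.

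The anaphase genes Cdc20 and Pttg1 moved together. Cdc20 was at 248.9, 155 and 245 CPM in spermatogonia, 240, 333 and 254 CPM in leptotene to zygotene spermatocytes and 306, 250 and 287 CPM in pachytene to diplotene spermatocytes. Pttg1 was at 204, 123 and 146 CPM, 196, 261 and 200 CPM, and 349, 221 and 277 CPM in the same classes. Both reached their highest cluster level in cluster 14, at 411 CPM for Cdc20 and 455 CPM for Pttg1. Their log2 levels had a Pearson r of 0.98 over the 20 clusters, the highest of any pair of the 10 genes. Such a correlation describes clusters that share the same 3 libraries and carries no test. Espl1, the gene of separase, was scarcer, at 30.5, 23.1 and 30.7 CPM in spermatogonia and 14.7, 14.8 and 14.3 CPM in pachytene to diplotene spermatocytes, with its highest level, 33.8 CPM, in cluster 18.

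The spindle genes differed from each other in where they peaked. Nusap1 encodes a protein that bundles microtubules near chromosomes. It was highest in cluster 14 (124 CPM), and its class levels were 30.9, 38.8 and 35.8 CPM in leptotene to zygotene and 88.3, 76.2 and 84.8 CPM in pachytene to diplotene spermatocytes. Kif11 encodes the kinesin that pushes spindle poles apart. It was highest in spermatogonia, at 32.9, 16.1 and 25.7 CPM, and reached only 9.28, 9.39 and 10.7 CPM in pachytene to diplotene spermatocytes. The control value of Kif11 in spermatogonia rests on 14 UMIs in 27 cells, and its interval, 17.98 to 55.2 CPM, holds the hairpin 2 value.

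**Figure D2:**
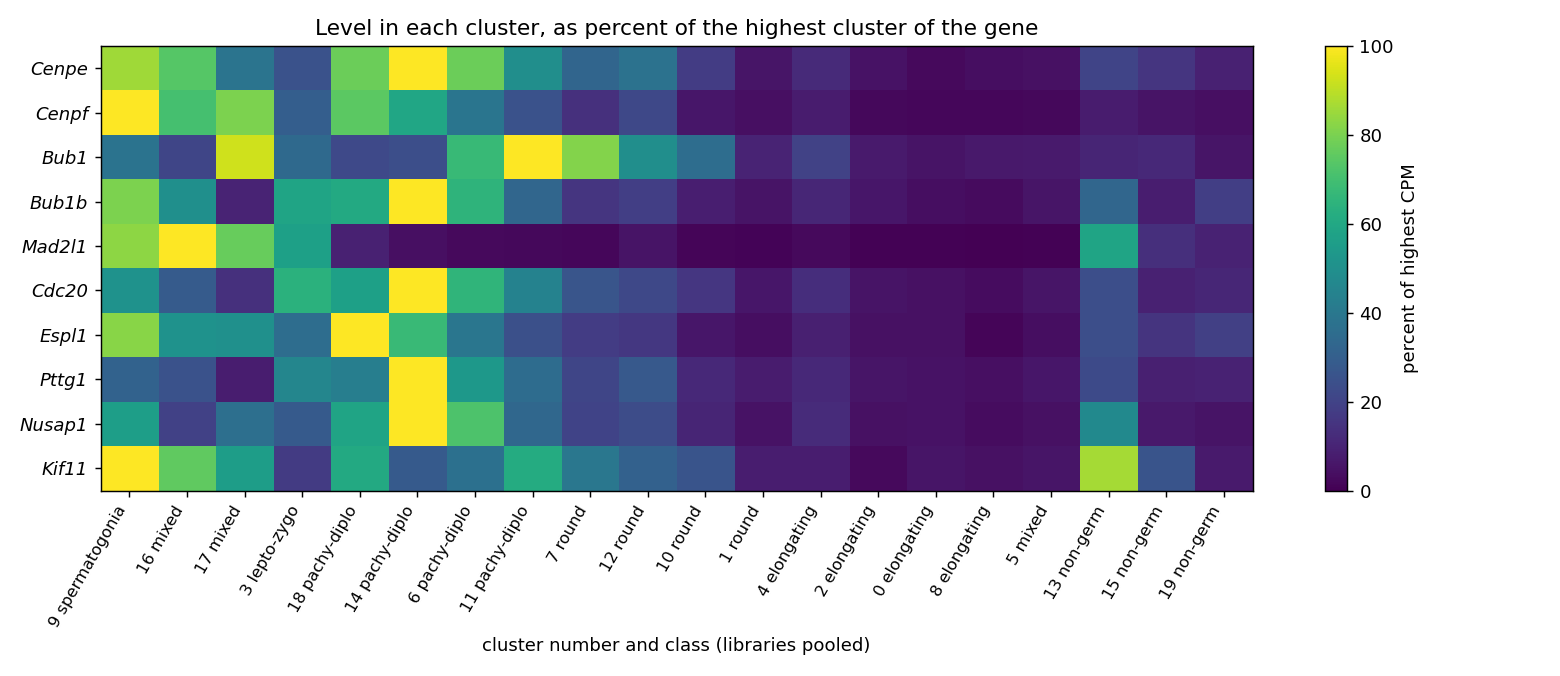
Level of each gene in the 20 clusters with libraries pooled, as a percent of the gene's highest cluster level (colour scale 0 to 100 percent). Cenpe, Bub1b, Cdc20, Pttg1 and Nusap1 peak in cluster 14, Espl1 in cluster 18, Cenpf and Kif11 in cluster 9 (spermatogonia), Bub1 in cluster 11 and Mad2l1 in cluster 16, a mixed cluster.

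Over the 20 clusters, the median Pearson r of a gene's log2 level with the other 9 ranged from 0.54 for Mad2l1 and 0.67 for Bub1 to 0.88 for Cenpe, Bub1b and Nusap1, and the lowest r of any pair, 0.26, was that of Mad2l1 with Bub1. Ranked over 7082 genes by the r of their log2 level with the mean profile of the 10, the most similar genes were Nudt21 (0.982), Znhit6 (0.976), Med1 (0.974), Dbf4, Psmd13, Ubac1, 4833420G17Rik, Snrpc, Rrm1 and Tbrg4 (0.969). None of these 10 stood on a list of kinetochore, checkpoint, cohesin, spindle or cyclin genes used below. At most 135 of the 7082 ranked genes were on those lists, so 0 of 10 says little. The genes most similar to Mad2l1 were Rpa2 (0.980), Esf1 (0.979) and Ssb (0.977), and those most similar to Bub1 were Yae1d1 (0.935), Cenpk (0.928) and Rnf14 (0.928).

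The comparison of the hairpin libraries with the control began with sums over all cells, in which more cells of a type and more RNA per cell cannot be told apart. All 10 genes were higher with both hairpins, as were 60.95% of the 7068 genes tested below. Cenpf was at 45.1 CPM in the control and 92.9 CPM in each hairpin library, 2.06 times the control with either hairpin (intervals 1.94 to 2.18 and 1.95 to 2.18). Nusap1 was at 19.7, 34.5 and 36.8 CPM, which is 1.75 (1.61 to 1.92) and 1.87 (1.72 to 2.04) times the control. Cenpe was at 20.5, 35.7 and 31.5 CPM, or 1.74 (1.60 to 1.90) and 1.54 (1.41 to 1.68) times the control. The hairpin libraries thus lay above the control by more than counting error for each of these 3 genes, and for Cenpf hairpin 2 stood at 1.001 times hairpin 1 (0.957 to 1.05).

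The checkpoint and anaphase genes were higher by smaller or less even amounts. Bub1 was at 34.7, 56.0 and 43.1 CPM, and its level with hairpin 2 was 0.769 of that with hairpin 1 (0.723 to 0.818). Mad2l1 was at 4.93, 6.13 and 11.4 CPM, and here hairpin 2 was at 1.86 times hairpin 1 (1.59 to 2.18). The 2 hairpins thus differed in opposite directions for Bub1 and Mad2l1, and the hairpin 2 library held 214 leptotene to zygotene spermatocytes, where Mad2l1 is high, against 68 with hairpin 1. That class gave 213 of the 509 Mad2l1 UMIs with hairpin 2 and 70 of 235 with hairpin 1. The non-germ clusters gave 93 and 17. With classes weighted to the control's mix, the log2 folds of Mad2l1 went from 0.27 and 1.07 to 0.26 and 0.20, so its gap between the hairpins closed, while those of Bub1 went from 0.68 and 0.30 to 0.47 and 0.04. Bub1b was at 8.46, 12.1 and 13.6 CPM, and Cdc20 at 81.9, 121 and 141 CPM. Pttg1 was at 86.1, 109 and 129.5 CPM, Espl1 at 4.16, 7.64 and 8.38 CPM, and Kif11 at 3.47, 6.03 and 6.92 CPM.

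A gene was called where its log2 fold of CPM plus 1 reached 1.5-fold in the same direction with both hairpins. Only genes with a mean over the 3 libraries of at least 10 CPM, and at least 30 UMIs in all, were tested. In all, 7 of the 10 passed this filter, Mad2l1, Espl1 and Kif11 being too scarce. Bub1b, at 8.46 CPM in the control, passed only through its hairpin levels. Cenpe (0.77 and 0.60 on the log2 scale), Cenpf (1.02 and 1.03) and Nusap1 (0.78 and 0.87) were called higher, that is 3 of 7, where the same call was met by 11.4% of the 7068 genes tested. None was called lower, against 4.97% of genes. At 2-fold only Cenpf was called, against 1.23% of genes called higher and 0.495% called lower. The median log2 fold of the 7 genes was 0.68 with hairpin 1 and 0.63 with hairpin 2, beside 0.23 and 0.25 over all genes tested.

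These calls depend on the scaling of the libraries. Scaling by total UMIs put 806 genes higher and 351 lower, so that 69.7% of calls were higher, whereas with trimmed mean of M-values factors 161 were higher and 1054 lower (13.3%). The median of all genes moved from 0.23 and 0.25 to -0.04 and -0.09 on the log2 scale. Under the latter scaling Cenpf alone was called, at 0.75 and 0.68, and Bub1 with hairpin 2 turned to -0.04. Relative to the median of all genes, which a scaling factor moves along with the members, all 7 passing genes were higher with both hairpins, as were 41.65% of all genes. With the class or the cluster mix of the control, described next, 4 and 3 of the 7 were above that median with both. The Cenpe call was also lost with a pseudocount of 5 CPM, without the 20 most abundant genes in the totals, without the non-germ and mixed clusters and without the cells marked as doublets, each of which left 2 calls.

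Class mix moved with these differences. Pachytene to diplotene spermatocytes, the richest large source of these UMIs, were 7.83%, 16.7% and 16.7% of cells and gave 13.6%, 28.6% and 22.4% of all UMIs. Spermatogonia were 1.90%, 6.18% and 6.94% of cells. When the class levels of each hairpin library were weighted by the class mix of the control, 0 of the 7 genes were called. Of the 7068 genes tested, 86 (1.22%) were then called higher and 97 lower. The median log2 fold was 0.30 and 0.13 (0.11 and 0.08 over all genes). Weighted by the control's mix of the 20 clusters, an alternative chosen after seeing the data, 0 of the 7 were called. Of all genes, 41 (0.58%) were then called higher and 38 lower. The medians were 0.14 and 0.12 (0.04 and 0.04 over all genes). With so few calls among all genes, 0 of 7 says little about these genes. Cenpf kept the largest value of the 7 passing genes, 0.36 with each hairpin, while Pttg1 went to -0.03 and 0.12 and Bub1 to 0.09 and -0.21.

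**Figure D3:**
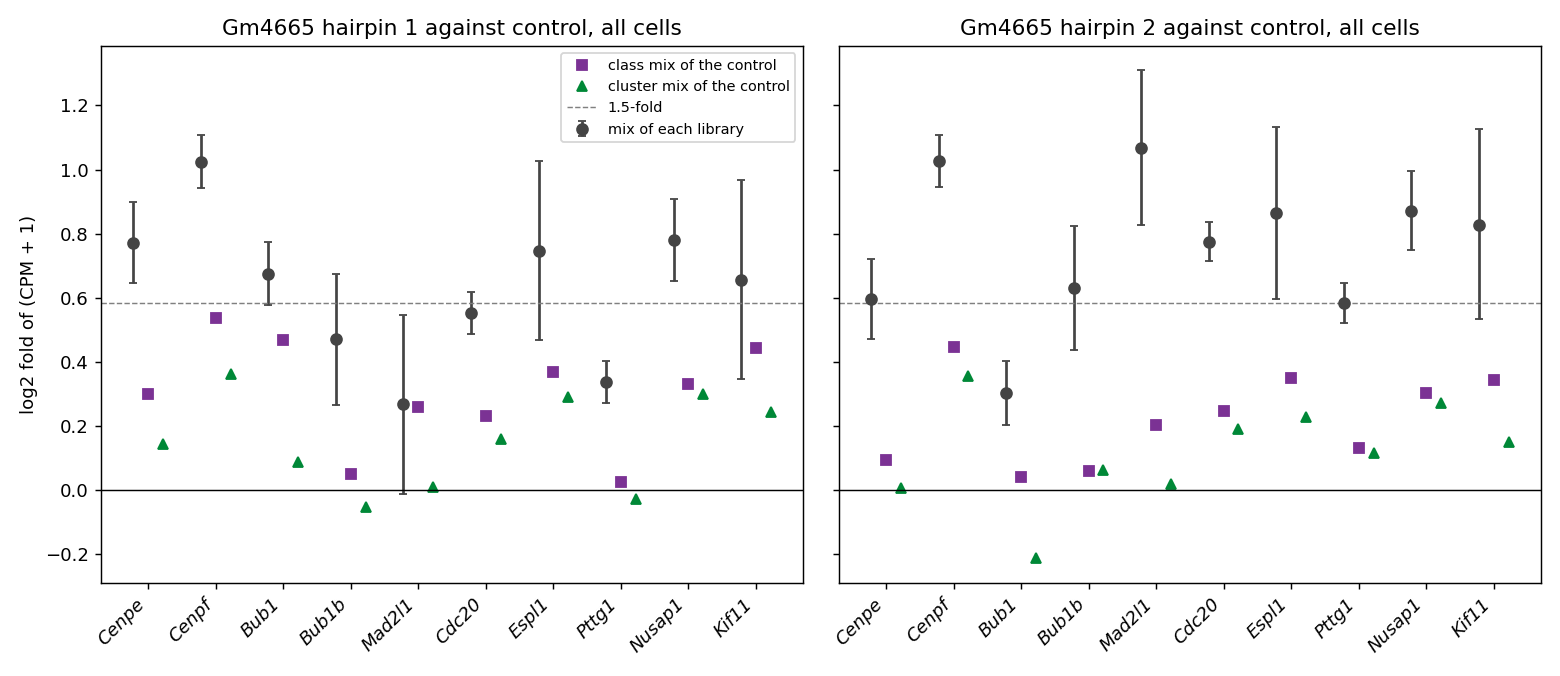
Log2 fold of (CPM + 1) of each gene over all cells, hairpin 1 on the left and hairpin 2 on the right, with the cells of each library as they were (circles, bars for the 95% interval of the UMI ratio) and with the classes (squares) or clusters (triangles) weighted to the control's mix. No square or triangle reaches the dashed 1.5-fold line, and the triangles of Cenpf stand at 0.36 in both panels.

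Within pachytene to diplotene spermatocytes, the cells nearest before the meiotic divisions, the sum of the 10 genes was lower with both hairpins, not higher. It stood at 1125, 953 and 1026 CPM, which is 0.847 (0.821 to 0.874) and 0.912 (0.884 to 0.941) of the control. Of the 8 genes passing the filter there, 0 were called in either direction (1.22% of 6863 genes were called higher and 1.01% lower), and the median log2 fold was -0.14 and -0.12, beside 0.00 and -0.02 over all genes. Pttg1, the securin gene, had the lowest ratios of these 8, at 349, 221 and 277 CPM, or 0.633 (0.596 to 0.672) and 0.793 (0.748 to 0.840) of the control. Cdc20 was at 306, 250 and 287 CPM, with ratios of 0.818 (0.770 to 0.870) and 0.938 (0.883 to 0.997). Cenpf was the only one of the 8 above the control with both hairpins, where 36.35% of all genes tested were. It was at 149, 178 and 168 CPM, with ratios of 1.195 (1.10 to 1.298) and 1.13 (1.04 to 1.23).

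By cluster, Pttg1 was at 551, 342 and 472 CPM in cluster 14, 346, 158 and 192 CPM in cluster 18, 257, 229 and 253 CPM in cluster 6 and 179, 150 and 168 CPM in cluster 11. With hairpin 1 it was thus below the control in each of the 4 clusters by more than counting error, and with hairpin 2 in clusters 14 and 18. The control held only 29, 6, 49 and 27 cells of clusters 14, 18, 6 and 11, each under the 50 cells asked of a class. In cluster 18 the control level of Pttg1 rests on 26 UMIs. The sum of the 10 genes was 1541, 1278 and 1515 CPM in cluster 14, 948, 994 and 1000 CPM in cluster 6 and 747, 721 and 704 CPM in cluster 11. Hairpin 2 was therefore within 6% of the control in each of these 3 clusters. Cluster 14, the richest, held 29 of the 111 pachytene to diplotene spermatocytes of the control, 49 of 290 with hairpin 1 and 56 of 313 with hairpin 2, so the class sums also moved with the mix of clusters. With cluster 11 left out, chosen after seeing the data, the log2 ratio of the sum with hairpin 2 went from -0.13 to -0.06.

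In leptotene to zygotene spermatocytes, which formed a single cluster, the sum was 729, 925 and 770 CPM, or 1.27 (1.18 to 1.36) and 1.06 (1.002 to 1.11) times the control. Of the 9 genes that passed the filter, 0 were called, where 2.27% of 7576 genes were called higher and 5.93% lower. Cdc20 at 240, 333 and 254 CPM and Pttg1 at 196, 261 and 200 CPM were above the control with hairpin 1 by more than counting error and close to it with hairpin 2. The 2 hairpins thus did not give the same value in this class, and the hairpin 1 library held only 68 of its cells.

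In spermatids the summed level of the 10 genes was low and above the control with both hairpins. The sum in round spermatids was 195, 327 and 262 CPM, or 1.68 (1.58 to 1.77) and 1.34 (1.27 to 1.42) times the control. Of the 6 genes that passed the filter there, Nusap1 alone was called, at 8.82, 20.6 and 14.7 CPM, where 3.19% of 6591 genes were called higher and 2.4% lower, and at 2-fold 0 were called (0.349% of genes higher). In elongating and condensing spermatids the sum was 60.5, 120 and 122 CPM, 1.99 (1.84 to 2.16) and 2.01 (1.85 to 2.19) times the control. In round spermatids 5 of the 6 passing genes were above the control with both hairpins, as were 50.34% of all genes tested there. The exception was Bub1 at 46.3, 70.6 and 45.7 CPM. In elongating and condensing spermatids 3 of the 4 passing genes were called higher, against 9.33% of 5069 genes called higher and 2.23% lower: Cenpf at 6.90, 17.1 and 15.5 CPM, Cdc20 at 15.7, 30.1 and 32.8 CPM and Pttg1 at 17.6, 32.5 and 38.4 CPM. The fourth, Bub1, was at 8.85, 16.8 and 13.1 CPM. At 2-fold, Cenpf alone was called there, against 1.76% of genes higher. The filter takes the mean of the 3 libraries, so a gene can pass through its hairpin levels. Cenpf and Bub1 in elongating and condensing spermatids, and Nusap1 in round spermatids, were under 10 CPM in the control and passed in this way. The counts of calls in spermatids are therefore a description and no test.

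**Figure D4:**
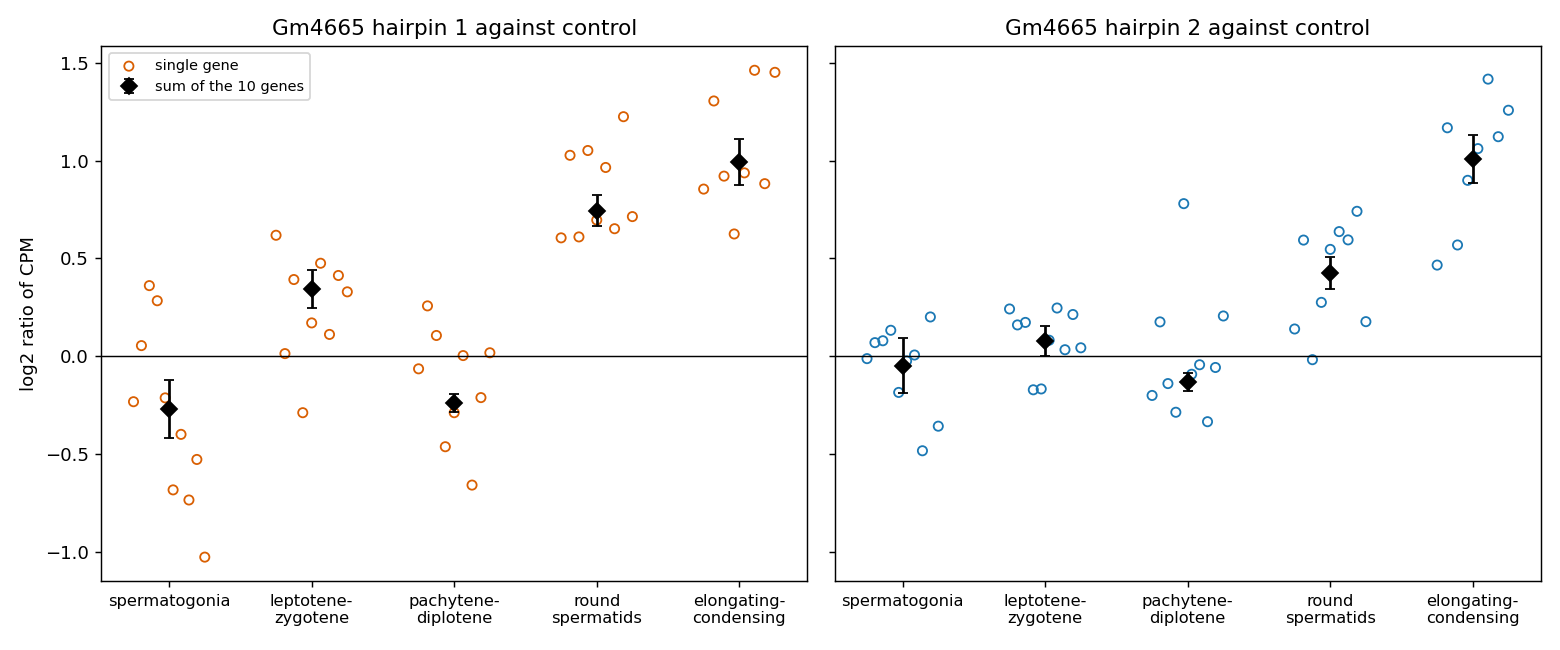
Log2 ratio of CPM, hairpin over control, by germ cell class. Open circles are single genes with at least 30 UMIs in the pair of libraries, and diamonds are the sum of the 10 genes with the 95% interval of the UMI ratio; the diamonds lie below 0 in pachytene to diplotene spermatocytes and near 1 in elongating and condensing spermatids with both hairpins.

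The spermatid difference was uneven across clusters. Among round spermatids, the sum was 83.2, 150 and 120 CPM in cluster 1 but 462, 487 and 420 CPM in cluster 7, 241, 226 and 237 CPM in cluster 10 and 599, 459 and 397 CPM in cluster 12. Cluster 1 held 233 of the 407 round spermatids of the control, 153 of 427 with hairpin 1 and 106 of 405 with hairpin 2, so different clusters made up most of the class in different libraries. Among the late cells, the sum was 38.1, 82.7 and 88.9 CPM in cluster 0, 45.4, 74.4 and 87.3 CPM in cluster 8, 55.8, 102 and 104 CPM in cluster 2 and 168, 211 and 220 CPM in cluster 4. Among the spermatid clusters, that with the lowest control level, cluster 0, thus had the largest ratios, 2.17 and 2.33, while round spermatid clusters 7 and 10 stayed within 10% of the control with both hairpins and cluster 12 was below it. Cluster 12 held only 28, 124 and 47 cells.

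Droplets can pick up free RNA from other cells, and the markers of other cell types did not move one way in the elongating and condensing spermatids. The summed level of the antibody-lineage markers there was 2.39, 14.7 and 74.2 CPM, and that of other leukocyte markers 3.77, 7.45 and 28.1 CPM. Leptotene to zygotene markers were at 75.1, 98.5 and 126 CPM. Each of these 3 lists was higher with both hairpins and highest with hairpin 2, whereas the 10 genes stood at 120 and 122 CPM with the hairpins. By contrast, spermatogonial markers were at 53.7, 28.4 and 43.0 CPM, Sertoli cell markers at 73.6, 44.1 and 68.1 CPM and macrophage markers at 34.5, 34.8 and 28.4 CPM. Pachytene to diplotene markers, of the class giving the largest share of these genes' UMIs, were at 5611, 6268 and 5739 CPM. Round spermatid markers were at 3308, 3435 and 3072 CPM. The part of free RNA in the spermatid values was not tested.

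The shares of cells with these RNAs differed most between classes. At least 1 UMI of the 10 genes was found in 77.9%, 91.0% and 93.9% of cells, and in 60.6% (57.9 to 63.2), 80.3% (77.9 to 82.5) and 85.5% (83.7 to 87.3) after thinning each cell to 10000 UMIs. In thinned pachytene to diplotene spermatocytes the share was 100% in all 3 libraries. In thinned elongating and condensing spermatids, which do not divide, it was 39.8% (35.7 to 43.9), 60.7% (56.1 to 65.2) and 67.7% (62.8 to 72.2), and before thinning 66.7%, 83.7% and 86.6%. A single UMI of these genes therefore marks no dividing cell. Thinned cells with 5 or more of the 10 genes were 10.4%, 19.9% and 21.3% of the libraries. Among pachytene to diplotene spermatocytes they were 53.6%, 54.4% and 51.5%, and among elongating and condensing spermatids 0.876%, 0.429% and 0.251%. Spermatogonia, at 57.7%, 53.2% and 63.4%, and leptotene to zygotene spermatocytes, at 48.1%, 44.8% and 37.9%, lay near the pachytene to diplotene share, and only the spermatid classes were far below it, round spermatids standing at 4.83%, 7.69% and 6.03%.

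The other genes of this machinery were read from 6 lists with 137 genes, of which 135 were in the data and 79 passed the filter over all cells. Of the 79, 16 were called higher and 0 lower, 68 were higher and 5 lower than the control with both hairpins (60.95% of all genes were higher with both), and the median log2 fold was 0.47 and 0.55, beside 0.23 and 0.25 over all genes tested. Kinetochore genes gave 5 of 17 higher (Cenpa, Cenpl, Cenpw, Nuf2 and Ska1), spindle motors and microtubule proteins 4 of 15 (Kif20a, Kif22, Tpx2 and Prc1), cohesin and condensin 3 of 15 (Smc1b, Wapl and Smc2), cyclins and kinases 2 of 13 (Ccnb1 and Cks1b), the checkpoint list 1 of 7 (Incenp) and the anaphase promoting complex 1 of 12 (Cdc26). Each list has few genes, and over all genes tested the share called higher was 11.4%. The filter takes the mean of the 3 libraries, so a gene can pass through its hairpin levels. Cenpa and Tpx2, at 5.79 and 8.69 CPM in the control, passed in this way and were called. The counts of calls in the lists are therefore a description and no test. With trimmed mean of M-values factors the 16 to 0 became 3 higher and 3 lower, where 161 of all genes were called higher and 1054 lower.

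Of the genes named from these lists by rank, Cenpa and Cks1b had the largest folds with hairpin 2, and both were richest in spermatogonia. With hairpin 2, however, the non-germ clusters gave 349 of the 1280 Cenpa UMIs and 654 of the 1759 Cks1b UMIs, and the mixed clusters 200 and 139. Cenpa, the histone H3 variant of centromeres, was at 5.79, 14.6 and 28.7 CPM over all cells, at 355, 248 and 374 CPM in spermatogonia and at 0.182, 0.456 and 1.10 CPM in pachytene to diplotene spermatocytes. Cks1b, which encodes a small subunit of cyclin-dependent kinases, was at 10.2, 19.3 and 39.4 CPM over all cells and 256, 273 and 293 CPM in spermatogonia. Plk1, a kinase of the meiotic and mitotic divisions, had a spermatocyte profile, at 209, 212 and 196 CPM in pachytene to diplotene spermatocytes, and over all cells it was at 45.5, 86.0 and 68.7 CPM. In that class its ratios to the control were 1.01 (0.942 to 1.09) and 0.935 (0.869 to 1.006), within counting error, while spermatogonia were too few in the control to be compared.

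Within pachytene to diplotene spermatocytes, 82 genes of the 6 lists passed the filter. None was called higher (1.22% of all genes) and 4 were called lower (1.01% of all genes): Aurkc, a kinase of meiotic chromosome segregation, Anapc7, a subunit of the anaphase promoting complex, Cit, a kinase of cytokinesis, and Wee1, a kinase that restrains entry into division. In all, 15 were above and 52 below the control with both hairpins, where 36.35% of all genes were above with both. The median log2 fold was -0.16 and -0.15, where all genes gave 0.00 and -0.02. The lists therefore had the same sign in this class as the 10 genes, whose medians were -0.14 and -0.12.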

How the data were processed

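The deposited values are on a natural log (ln) scale. The authors divided each UMI count by its cell's total, multiplied by 10000, added 1 and took ln, as the values themselves show. The submitters' processing notes name mm10, Cell Ranger 1.3.1 and Seurat 2.0.0. Strand, annotation and cell filter were not stated there. Undoing the log made each cell sum to 10000, and 100% of 20140203 non-zero values were whole UMIs within 0.01, so UMIs were summed per library and class and scaled to CPM. Which column belongs to which hairpin was read from the last digit of its name alone. If that match were wrong, the hairpins would change places.

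No cell was removed, and no batch correction was used. Scrublet, run through scanpy, marked 8, 4 and 6 cells as doublets (0.564%, 0.231% and 0.32%), which is too few to show that it worked, and they were kept. Cells were clustered with scanpy 1.11.5 (Python 3.11.15, leidenalg 0.10.2, igraph 0.11.9) from 2000 variable genes, 30 components, 15 neighbours and Leiden resolution 0.8, without 145 genes (the 10 described here and the related lists). A cluster took the name of the marker list, of 12, with the highest mean log2 level over the other cells, given at least 3 markers raised 1.5-fold. It was called mixed where a second list of another kind of cell had a mean of at least 0.75. This naming rule was set after values were seen. Each class name stands for cells that resemble it.

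Folds used log2 of CPM plus 1, and genes had to reach a mean of 10 CPM and 30 UMIs. Intervals are 95% Poisson intervals for counts, exact conditional intervals for ratios and Clopper-Pearson intervals for shares, and UMIs of pooled mice carry no animal-to-animal error. Thinning to 10000 UMIs left out 70, 530 and 332 shallower cells. With 3 UMIs as the limit that a count of 0 allows, the floor was 0.0743, 0.0783 and 0.0672 CPM. All 10 genes are named; from each list up to 3 genes were taken, those with the largest smaller fold of the 2 hairpins in 1 direction, with called genes added by name only. The genes and lists were chosen with earlier results of these data known. The steps were tested on simulated data. Alternatives changed scaling (trimmed mean of M-values, median of ratios), pseudocount, filter, fold, depth, clustering and class mix. Transcripts were compared with blastn 2.17.0. The calculations ran on scipy 1.17.1 and pandas 2.3.3 with numpy 2.4.6, with scikit-learn 1.9.0 for components and matplotlib 3.10.9 for figures.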

Additional observations from a re-analysis of the deposited data

Results flagged for a closer look

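For Cdc20 and Pttg1, both hairpin libraries lay below the control in pachytene to diplotene spermatocytes and above it in both spermatid classes, by more than counting error in each case. The Cdc20 ratio to the control with hairpin 1 was 0.818 in pachytene to diplotene spermatocytes, 1.62 in round spermatids and 1.92 in elongating and condensing spermatids. With hairpin 2 it was 0.938, 1.46 and 2.09. The Pttg1 ratio with hairpin 1 was 0.633, 1.57 and 1.84 in the same classes, and with hairpin 2 it was 0.793, 1.51 and 2.18. The clusters within a class did not all share these directions, and the libraries filled them unevenly. Cdc20 was at 245, 267 and 282 CPM in cluster 6 and 448, 352 and 430 CPM in cluster 14, both pachytene to diplotene. Among round spermatids it was at 18.3, 37.0 and 26.6 CPM in cluster 1 but 104, 110.5 and 109.5 CPM in cluster 7, 66.6, 58.2 and 65.4 CPM in cluster 10 and 113, 85.9 and 80.5 CPM in cluster 12. Pttg1 was at 27.3, 44.9 and 41.6 CPM in cluster 1, 92.1, 90.4 and 99.4 CPM in cluster 7, 45.6, 52.3 and 60.1 CPM in cluster 10, and 164, 115 and 128 CPM in cluster 12. In elongating and condensing spermatids both genes were above the control with both hairpins in each of the 4 clusters. The difference between classes was not tested, because each condition was 1 library and both hairpins share 1 control.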

How the results depend on the processing

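The 3 genes called over all cells became 1 with trimmed mean of M-values factors, 1 with median-of-ratios factors, 1 at 2-fold, 5 in thinned cells, 5 of 10 with no filter, 6 from means of the deposited ln values, 2 (Cenpe lost) in each of the 4 settings given in the report, and 0 with the class or the cluster mix of the control. The median log2 folds of 0.68 and 0.63 became 0.41 and 0.31 with trimmed mean factors, 0.40 and 0.26 with median-of-ratios factors, 0.30 and 0.13 with the class mix and 0.14 and 0.12 with the cluster mix; with hairpin 2 alone they became 0.90 in thinned cells, 0.80 with no filter and 0.94 from ln means. The single call in round spermatids became 0 with median-of-ratios factors, with a pseudocount of 5 CPM, in thinned cells, at 2-fold, at Leiden resolution 1.2 and with all genes kept in the clustering, 2 with no filter and 4 at resolution 0.5. The 3 calls in elongating and condensing spermatids became 5 with no filter and 1 at 2-fold. At resolution 0.5 the log2 ratio of the sum with hairpin 2 became 0.002 in leptotene to zygotene (from 0.08), -0.069 in pachytene to diplotene (from -0.13) and 0.57 in round spermatids (from 0.43). Without cluster 11 the pachytene to diplotene value was -0.062. In round spermatids resolution 1.2 gave 0.63 with hairpin 1 (from 0.74) and 0.30 with hairpin 2, and keeping all genes in the clustering gave 0.34 with hairpin 2. Resolution 1.2 gave no leptotene to zygotene value, since a library then held under 50 such cells. The 16 calls of the related lists became 1 at 2-fold and 3 higher with 3 lower with trimmed mean factors. Of all genes, 1.23% were called higher at 2-fold, and 161 of 7068 were called higher and 1054 lower with trimmed mean factors. Shares of cells with a UMI were 60.6%, 80.3% and 85.5% after thinning. No called value changed sign, and the causes of these shifts were not tested beyond what each setting changes by construction. No paired analysis was possible because each group is 1 library, and leaving out a replicate was not possible for the same reason. Hairpin libraries had fewer UMIs per cell than the control, and spermatid values of single genes rest on few UMIs.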
